A study of Mus musculus with 6 samples.

Results

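Collagens other than type IV were compared between 2 stable lines derived from the mouse ovarian surface epithelium (MOSE), the simple cell layer that covers the ovary. The members were 33 named collagen genes, taken from the 25006 Ensembl identifiers of the count files through their mouse symbols, and all 33 were found. They were grouped by the structure their proteins form: 9 fibrillar, 9 fibril-associated, 9 network (beaded, anchoring and hexagonal forms), 3 transmembrane and 3 multiplexin or other chains. MOSE-PAX8, 3 libraries, overexpresses the transcription factor PAX8, and MOSE-NEO, 3 libraries, is the reference line. Both lines were grown under selection with 0.05 mg/mL G418 and received no other treatment. The labels name 1 line for each group and do not say whether a line is a clone or a pool, so line and PAX8 cannot be told apart. Whether each library is its own culture is not stated, so every p-value here reflects the scatter among libraries alone, and that scatter may be technical.

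Collagens are proteins of 3 chains that wind into a triple helix around a glycine at each repeat of the sequence. Chains are hydroxylated and folded in the endoplasmic reticulum, secreted as procollagen, trimmed at their ends, assembled and crosslinked. Fibrillar collagens I, III and V form the banded fibrils of connective tissue, with type V inside the fibril at its start of growth. Fibril-associated collagens such as XII, XIV and XVI decorate fibril surfaces, and type VI forms beaded filaments close to cells. Ovarian surface epithelium lies on a collagen-rich tunica and is known to keep some mesenchymal features in culture.

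Library totals ranged from 30621528 to 36367825 counts in MOSE-PAX8 and from 23623762 to 32057173 in MOSE-NEO. Pax8 had 2570 to 3544 counts in MOSE-PAX8 and 0 or 1 in MOSE-NEO, as the labels say. Of 11 listed surface and mesothelium markers, 8 had a mean of at least 1 CPM (counts scaled to the size of each library) in either line. The list summed to 7443 to 8620 CPM in MOSE-PAX8 and 12594 to 13938 CPM in MOSE-NEO. Among its keratins, Krt7 had 948 to 1208 CPM in MOSE-PAX8 and 1784 to 2028 CPM in MOSE-NEO. Krt18 had 506 to 702 CPM in MOSE-PAX8 and 630 to 706 CPM in MOSE-NEO. The keratins Krt8 and Krt19 were scarce, with Krt8 at 0.283 to 0.339 CPM in MOSE-PAX8 and 0.631 to 1.08 CPM in MOSE-NEO. Krt19 had 0.37 to 0.438 CPM in MOSE-PAX8 and 0.133 to 0.478 CPM in MOSE-NEO. Of 10 tested markers of that list 6 fell and 1 (Cdh2) rose by edgeR, where 16.1% of all tested genes were called lower and 17.9% higher, and Cdh1 had 3 counts in all MOSE-PAX8 libraries and 1 in all MOSE-NEO libraries. Fibroblast markers summed to 1183 to 1691 CPM in MOSE-PAX8 and 1524 to 1825 CPM in MOSE-NEO, mainly Dcn. Of 3 tested fibroblast markers 1 fell, Thy1, with 4.07, 1.92 and 2.31 CPM in MOSE-PAX8 and 55.9, 40.3 and 61.1 CPM in MOSE-NEO. Leukocyte markers summed to 8.89 to 10.2 CPM in MOSE-PAX8 and 9.09 to 16.9 CPM in MOSE-NEO, with Adgre1 at 0. Of 3 tested leukocyte markers Ptprc was called higher, with 60, 49 and 87 counts in MOSE-PAX8 and 0, 0 and 1 in MOSE-NEO, and Csf1r lower, with 192, 115 and 121 counts in MOSE-PAX8 and 423, 164 and 334 in MOSE-NEO. Endothelial markers summed to at most 0.524 CPM in MOSE-PAX8 and 1.03 CPM in MOSE-NEO, with Cdh5 and Erg at 0. Granulosa and theca markers, mainly Star, summed to 374 to 414 CPM in MOSE-PAX8 and 442 to 541 CPM in MOSE-NEO, with Fshr, Cyp19a1 and Lhcgr at 0. Of 3 tested markers of this list Foxl2 was called higher, with 57, 47 and 78 counts in MOSE-PAX8 and 0, 1 and 0 in MOSE-NEO, and Inha and Star were called lower (log2 fold changes -0.39 and -0.36). Ptprc and Foxl2 had at most 1 count in any MOSE-NEO library, so their counts in MOSE-PAX8 brought them into the test. The part of these markers in the results below was not tested, and fewer cells of a type and less RNA per cell cannot be told apart in bulk RNA. Libraries MOSE-PAX8 2 and MOSE-NEO 1 stood apart from the others of their line, with 0.33% and 0.317% of their counts in long intergenic non-coding RNA (lincRNA) genes, against 0.164% and 0.195% in the other MOSE-PAX8 libraries and 0.162% and 0.146% in the other MOSE-NEO libraries.

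The collagen genes together took a smaller part of the counts in MOSE-PAX8. Their share was 1.95%, 2.09% and 1.82% of all counts in MOSE-PAX8 libraries 1 to 3, and 3.43%, 4.03% and 3.63% in MOSE-NEO libraries 1 to 3. The means were 1.95% ± 0.135 in MOSE-PAX8 and 3.7% ± 0.306 in MOSE-NEO (SD, n = 3 each), and the libraries of the lines did not overlap. Col3a1, Col1a2, Col5a2 and Col1a1 held 96.9% to 97.4% of the collagen counts in MOSE-PAX8 and 97.6% to 98.1% in MOSE-NEO, so this share describes 4 fibrillar genes. Summed per kilobase of transcript, the fibrillar class reached 3268 ± 197 CPM per kilobase in MOSE-PAX8 and 6553 ± 573 in MOSE-NEO, and the network class 74.9 ± 14 CPM per kilobase in MOSE-PAX8 and 139 ± 24.3 in MOSE-NEO (SD, n = 3 each). The fibril-associated class had 33.5, 38.2 and 31.1 CPM per kilobase in the MOSE-PAX8 libraries and 46.8, 39.1 and 35.5 in the MOSE-NEO libraries, which overlapped.

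Of the 33 collagen genes, 17 had enough counts for the test across all genes (edgeR's quasi-likelihood test with Benjamini-Hochberg adjustment). In MOSE-PAX8, 7 of these fell and 2 rose at an adjusted p below 0.05. Over all 12313 genes tested, 33.9% were called, 16.1% lower and 17.9% higher. At a change of at least 2-fold, 3 collagen genes were lower and 2 higher, against 3.15% and 6.07% of all tested genes. The 3 libraries of MOSE-PAX8 lay wholly below those of MOSE-NEO for 7 collagen genes, and wholly above for 2, where the shares over all tested genes were 22.2% and 25.3% (47.6% in either direction). The median log2 fold change was -0.4 over the 17 tested collagen genes and 0.01 over all tested genes. Tested against a fold of 1.5, 5 collagen genes were lower and 1 higher, against 3% and 5.69% of all tested genes. A gene can pass the filter on low counts through the line in which it is high, so these 17 do not stand for the 33. The calls fell by class into 4 lower of 7 tested fibrillar genes, 2 lower of 5 tested network genes, and 2 higher and 1 lower of 5 tested fibril-associated genes. No transmembrane or multiplexin gene could be tested.

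**Figure D1:**
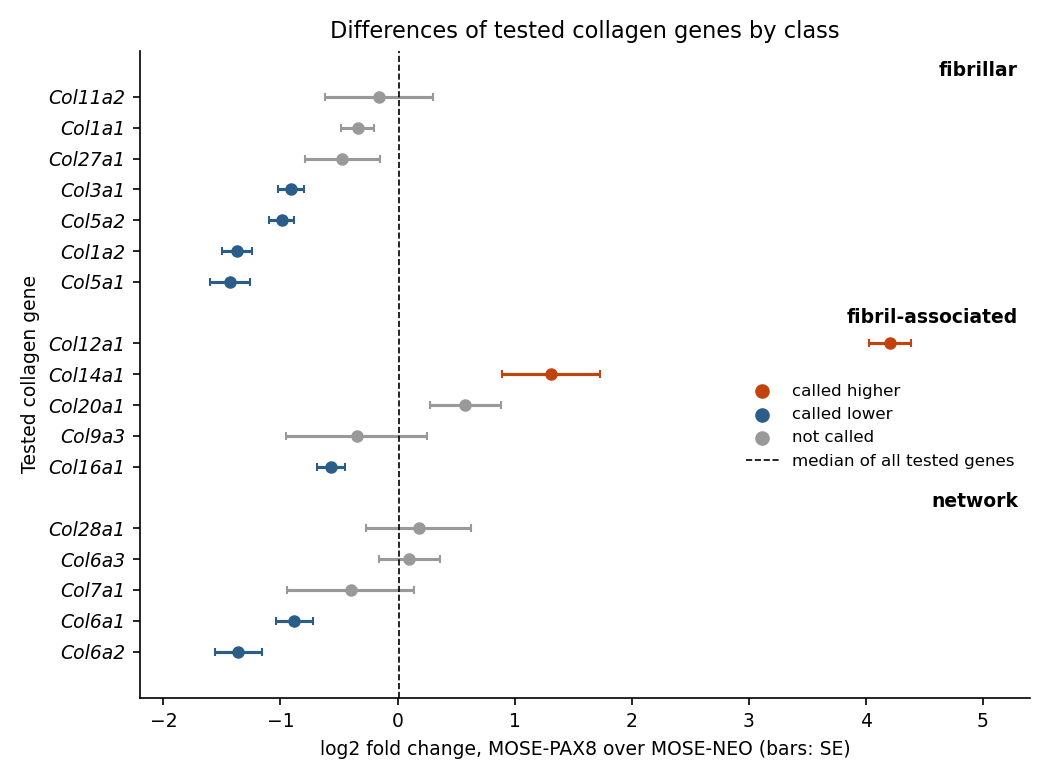
Log2 fold change of the 17 tested collagen genes in MOSE-PAX8 over MOSE-NEO (horizontal axis, bars are SE of the edgeR estimate), one row per gene, grouped by class. The fibrillar points all lie left of the median of all tested genes at 0.01, and Col12a1 lies alone at 4.21.

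Among the fibrillar chains, Col3a1 (chromosome 1, 45311538 to 45349706, mm10), the only chain of the type III homotrimer, was the most abundant collagen in both lines. It had 9696, 9389 and 9115 CPM in MOSE-PAX8 libraries 1 to 3 and 16106, 18846 and 17893 CPM in MOSE-NEO libraries 1 to 3. All MOSE-PAX8 libraries were below all MOSE-NEO libraries, by 1.87-fold in the fit (log2 fold change -0.91 ± 0.11 SE, edgeR adjusted p = 0.000365). Col5a2 (chromosome 1, 45374321 to 45503282), a chain of type V, ends 24614 bases away from Col3a1 and is read from the opposite strand. It had 2843, 2770.5 and 2428 CPM in MOSE-PAX8 and 5015, 5815 and 5097 CPM in MOSE-NEO, again without overlap. Its log2 fold change was -0.99 ± 0.11 SE (edgeR adjusted p = 0.000254), and the 50 tested genes nearest to each of these neighbours had a median of 0.01.

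For type I collagen, Col1a2 was called lower and Col1a1 was not, which does not by itself show that their changes differ. Col1a2 (chromosome 6, 4504814 to 4541544), the alpha-2 chain, had 4442, 5003 and 3925 CPM in MOSE-PAX8 and 10670.1, 12858 and 11007 CPM in MOSE-NEO, and fell by 1.37 on the log2 scale (SE 0.13, edgeR adjusted p = 0.000114). Col1a1 (chromosome 11, 94936224 to 94953042), the alpha-1 chain, had 1829, 2337 and 1850.4 CPM in MOSE-PAX8 and 2292, 2946 and 2396 CPM in MOSE-NEO. The Col1a1 libraries of the lines overlapped, because MOSE-PAX8 2 was above MOSE-NEO 1. Its log2 fold change of -0.34 ± 0.14 SE did not pass (edgeR adjusted p = 0.0884), and the alternatives were divided, with 5 of 16 calling it lower and an adjusted p between 0.0202 and 0.264. Without both lincRNA-rich libraries the value was -0.55 (edgeR adjusted p = 0.0202).

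The promoters of 3 fibrillar genes are shown because these genes fell and belong to different fibrillar types. Each is the stretch of 250 bases before the RefSeq transcript start (GRCm38.p6, the build also called mm10), written 5′ to 3′ on the strand of the gene, with capitals for matches, on either strand, to CCAAT (the box bound by NF-Y), GGGCGG (the GC box bound by Sp1), TATAAA (the TATA box) or TGANTCA (the core bound by AP-1). No printed match overlaps another. For Col1a2 the RefSeq start lies inside the gene as GENCODE draws it.
Col1a2, chr6:4505368-4505617, plus strand: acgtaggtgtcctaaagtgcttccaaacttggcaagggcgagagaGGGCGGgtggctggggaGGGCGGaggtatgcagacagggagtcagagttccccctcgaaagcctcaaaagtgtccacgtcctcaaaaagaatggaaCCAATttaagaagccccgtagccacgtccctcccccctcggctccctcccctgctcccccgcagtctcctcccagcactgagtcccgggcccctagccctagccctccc
Col3a1, chr1:45311288-45311537, plus strand: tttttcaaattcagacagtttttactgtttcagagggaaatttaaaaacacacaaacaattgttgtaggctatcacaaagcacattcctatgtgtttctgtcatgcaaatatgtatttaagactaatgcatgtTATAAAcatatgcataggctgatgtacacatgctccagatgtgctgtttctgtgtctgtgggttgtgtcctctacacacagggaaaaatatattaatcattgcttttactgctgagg
Col5a1, chr2:27886175-27886424, plus strand: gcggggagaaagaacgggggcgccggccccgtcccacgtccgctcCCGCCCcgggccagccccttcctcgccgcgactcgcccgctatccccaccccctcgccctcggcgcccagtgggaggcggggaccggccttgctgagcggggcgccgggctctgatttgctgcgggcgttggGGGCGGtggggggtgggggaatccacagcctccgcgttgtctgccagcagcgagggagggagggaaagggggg

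The 3 windows differ in composition, with 62% G and C in Col1a2, 35.2% in Col3a1 and 76.4% in Col5a1. Col1a2 held 2 GC boxes and 1 CCAAT, Col3a1 held 1 TATAAA, and Col5a1 held 2 GC boxes. Of the 9 called collagen genes, 6 had a RefSeq promoter entry, with 7 windows in all since Col6a2 has a pair of starts. A GC box stood in windows of 4 of the 6 genes, CCAAT in 2 (Col1a2 and Col16a1), TATAAA in 1 (Col3a1) and TGANTCA in 1 (Col6a1). Of 32851 promoter windows of the same length, 32.7% held GGGCGG, 33.8% CCAAT, 12.4% TATAAA and 6.75% TGANTCA. A match describes letters in the window and says nothing of binding. Col5a2, Col12a1, Col14a1 and Col1a1 are not shown.

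The rest of the fibrillar class was scarce. Col5a1 (chromosome 2, 27886425 to 28039514), the alpha-1 chain that type V trimers need, had 6.32, 8.83 and 6.75 CPM in MOSE-PAX8 and 18, 23.8 and 17.1 CPM in MOSE-NEO. The lines did not overlap, and the log2 fold change was -1.43 ± 0.17 SE (edgeR adjusted p = 0.000399). Of all tested collagen genes it had the most negative estimate, though Col1a2 and Col6a2 lay within its SE. Col11a2, a chain of cartilage type XI, had 2.87, 10.1 and 4.22 CPM in MOSE-PAX8 and 9.69, 4.56 and 4.71 CPM in MOSE-NEO, with overlapping libraries. Its log2 fold change of -0.16 ± 0.46 SE did not pass (edgeR adjusted p = 0.828). Col27a1, a fibrillar chain of cartilage, had 1.07, 2.29 and 1.36 CPM in MOSE-PAX8 and 2.64, 1.78 and 2.06 CPM in MOSE-NEO, also overlapping (log2 fold change -0.47 ± 0.32 SE, edgeR adjusted p = 0.299). Col2a1, the cartilage type II chain, had 12 counts over all MOSE-PAX8 libraries and 20 over all MOSE-NEO libraries, and Col5a3 had 2 and 4, too few for the test.

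**Figure D2:**
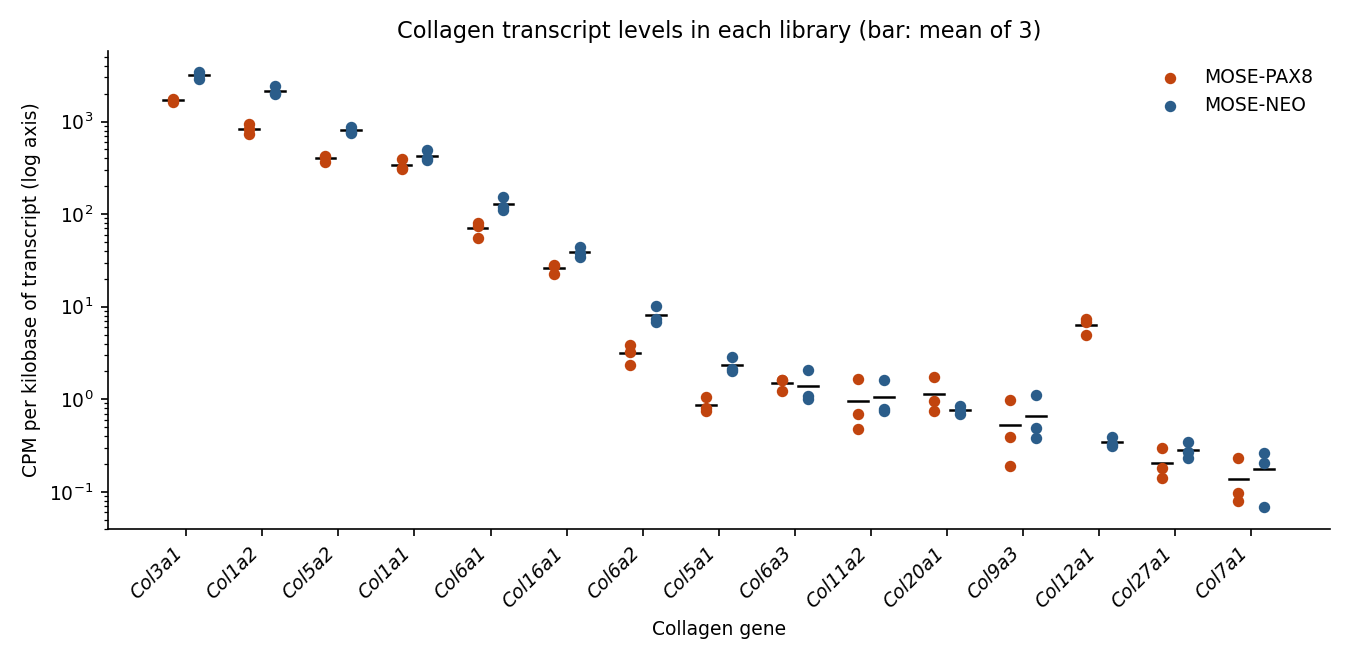
CPM per kilobase of transcript (vertical log axis) in each of 3 MOSE-PAX8 and 3 MOSE-NEO libraries for the 15 collagen genes whose mean reached 1 CPM in either line; points are libraries and bars their mean. Col3a1, Col1a2 and Col5a2 are lower in every MOSE-PAX8 library than in any MOSE-NEO library, and Col12a1 is higher.

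Fibril-associated collagens differed in direction. Col12a1 (chromosome 9, 79598991 to 79718831), the type XII chain that bridges fibrils in tissue under load, had 56.3, 85 and 79.1 CPM in MOSE-PAX8 and 4.48, 3.78 and 3.62 CPM in MOSE-NEO. Every MOSE-PAX8 library was above every MOSE-NEO library, and the log2 fold change was 4.21 ± 0.18 SE (edgeR adjusted p = 2.15e-06). Among the 15 collagen genes whose mean reached 1 CPM in either line it stood 7th per kilobase in MOSE-PAX8, at 6.38 ± 1.32 CPM per kilobase, and 13th in MOSE-NEO, at 0.344 ± 0.0397 (SD, n = 3 each). In MOSE-NEO its libraries overlapped those of Col9a3 and Col27a1, its neighbours in that order. Col12a1 held 0.291% to 0.445% of the collagen counts in MOSE-PAX8, against 0.00914% to 0.0128% in MOSE-NEO.

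Col14a1 (chromosome 15, 55307750 to 55520803), the type XIV chain and a close relative of Col12a1, was higher in MOSE-PAX8 on few counts. It had 26, 23 and 22 counts in MOSE-PAX8 libraries 1 to 3 and 14, 6 and 4 in MOSE-NEO libraries 1 to 3. With so few counts in MOSE-NEO, Col14a1 could pass the filter on low counts through MOSE-PAX8, the line in which it is high. In CPM the lines did not overlap, and the log2 fold change was 1.31 ± 0.42 SE (edgeR adjusted p = 0.0398). This call was lost in 8 of 15 alternatives, among them DESeq2 (adjusted p = 0.101), subtraction of the local chromosome median (edgeR adjusted p = 0.0757), and the fits without MOSE-PAX8 1, 2 or 3 (0.0889, 0.0715 and 0.1) or without MOSE-NEO 2 or 3 (0.112 and 0.113). The estimate was between 0.96 and 1.86 over the 15 alternatives.

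Col16a1 (chromosome 4, 130047840 to 130099283), the type XVI chain found beside fibrils and near cells, was the most abundant fibril-associated gene. It had 144, 146 and 118 CPM in MOSE-PAX8 and 231, 196 and 177 CPM in MOSE-NEO, without overlap (log2 fold change -0.57 ± 0.12 SE, edgeR adjusted p = 0.00708). Its level per kilobase was 26.1 ± 2.94 in MOSE-PAX8 and 38.7 ± 5.26 in MOSE-NEO (SD, n = 3), so the class total was mainly Col16a1 in both lines. Col20a1, a type XX chain, had 3.75, 8.77 and 4.81 CPM in MOSE-PAX8 and 4.19, 3.43 and 3.88 CPM in MOSE-NEO, overlapping, with a log2 fold change of 0.58 ± 0.3 SE (edgeR adjusted p = 0.172). Col9a3, a chain of cartilage type IX, had 0.574, 3.02 and 1.2 CPM in MOSE-PAX8 and 3.4, 1.48 and 1.16 CPM in MOSE-NEO and did not pass (log2 fold change -0.35 ± 0.6 SE, edgeR adjusted p = 0.694). Col9a3 shares 234 exon bases with Tcfl5 on the opposite strand, which had 3 counts in all. Of the other type IX chains, Col9a1 had 1 count over all libraries and Col9a2 had 5. Col19a1 had 3 counts and Col22a1 had 0.

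In the network class, the type VI chains Col6a1 and Col6a2 were lower in MOSE-PAX8 and the third chain, Col6a3, did not pass. Col6a1 (chromosome 10, 76708792 to 76726168) had 306, 328 and 227 CPM in MOSE-PAX8 and 495, 634 and 457 CPM in MOSE-NEO. Col6a2 (chromosome 10, 76595762 to 76623630), which lies 85161 bases from Col6a1 on the same strand, had 15, 18 and 10.9 CPM in MOSE-PAX8 and 34, 46.9 and 32 CPM in MOSE-NEO. The libraries of the lines did not overlap for either gene. The log2 fold changes were -0.88 ± 0.16 SE for Col6a1 and -1.36 ± 0.2 SE for Col6a2 (edgeR adjusted p = 0.0037 and 0.00115). Col6a3 (chromosome 1, 90765923 to 90843971), the long alpha-3 chain, had 16.5, 16.4 and 12.3 CPM in MOSE-PAX8 and 20.8, 10.2 and 10.9 CPM in MOSE-NEO. Its libraries overlapped, since MOSE-NEO 1 was above all others, and the log2 fold change was 0.1 ± 0.26 SE (edgeR adjusted p = 0.798). Without MOSE-NEO 1 the Col6a3 estimate was 0.51 (edgeR adjusted p = 0.0509), and without MOSE-NEO 2 or MOSE-NEO 3 it was -0.08 or -0.05.

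Other network chains were near the limit of the counts. Col7a1, the anchoring fibril chain, had 0.738, 2.14 and 0.894 CPM in MOSE-PAX8 and 2.41, 1.91 and 0.631 CPM in MOSE-NEO, with overlap (log2 fold change -0.4 ± 0.54 SE, edgeR adjusted p = 0.615). Col28a1, a type XXVIII chain, had 37 counts over all MOSE-PAX8 libraries and 27 over all MOSE-NEO libraries and did not pass (log2 fold change 0.18 ± 0.45 SE, edgeR adjusted p = 0.803). Col6a6, a further alpha chain of type VI, had 8, 10 and 12 counts in MOSE-PAX8 and 4, 2 and 1 in MOSE-NEO, under the filter. With no low-count filter it was among 3 collagen genes called higher, and it was also called without MOSE-PAX8 1 and without MOSE-NEO 1. Col8a1, a chain of the hexagonal network of type VIII, had 11 counts in MOSE-PAX8 and 3 in MOSE-NEO, and Col8a2 had 0 and 2. Col10a1, the chain of growth plate cartilage, had 14 counts in MOSE-PAX8 and 6 in MOSE-NEO, and 18 of its exon bases lie opposite Nt5dc1, which had 5869 counts, so the strand of these reads is uncertain.

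Transmembrane and multiplexin collagens were almost silent in both lines. Of the transmembrane chains, Col23a1 had 11 counts over the MOSE-PAX8 libraries and 23 over the MOSE-NEO libraries, Col17a1, a hemidesmosome chain, had 1 and 2, and Col13a1 had 0 and 1. Of the multiplexins, which sit in basement membrane zones, Col18a1, the precursor of endostatin, had 35 counts in MOSE-PAX8 and 19 in MOSE-NEO, and Col15a1 had 16 and 19. Col26a1, like Col22a1, had 0 counts in every library. The limit that a count of 0 allows for counting error was taken as 3 counts. That is a level of up to 0.0825 to 0.098 CPM in a MOSE-PAX8 library and 0.0936 to 0.127 CPM in a MOSE-NEO library. These limits divide by the library total, without the scaling factors used for the other CPM values. In all, 16 collagen genes were not tested, 9 of them with fewer than 10 counts over the 6 libraries, and none had more than 54 counts in all.

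Ratios between chains of the same collagen type do not depend on how libraries are scaled. Of 7 ratios listed, 4 had at least 10 counts of each chain in each line. The Col1a1 to Col1a2 ratio of levels per kilobase was 0.371, 0.421 and 0.425 in MOSE-PAX8 and 0.194, 0.207 and 0.196 in MOSE-NEO, so the ratio was 2.04-fold higher in MOSE-PAX8 without overlap of the lines. In the triple helix of type I collagen the alpha-1 chain is the more numerous, while here its transcripts were the fewer in both lines. The ratio uses the longest coding transcript, and with the union of all exons the mean was 0.851 in MOSE-PAX8 and 0.417 in MOSE-NEO, so its size depends on the length chosen but its fold between lines does not.

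The other chain ratios differed by less or varied more. Col6a1 to Col6a2 was 23.2, 20.6 and 23.5 in MOSE-PAX8 and 16.5, 15.3 and 16.2 in MOSE-NEO, 1.4-fold higher in MOSE-PAX8. Col5a1 to Col5a2 was 0.00175, 0.00252 and 0.0022 in MOSE-PAX8 and 0.00283, 0.00323 and 0.00265 in MOSE-NEO, 1.36-fold lower in MOSE-PAX8. Per kilobase, Col5a1 counts were thus a very small part of the type V counts in both lines. Col5a1 shares 99 exon bases with 2810430I11Rik and 113 with Gm13372 on the opposite strand, neither of them among the counted genes. Strandedness and gene models are not known, and how far the counting shapes this ratio was not tested. Col6a3 to Col6a1 was 0.0219, 0.0203 and 0.022 in MOSE-PAX8 and 0.017, 0.00655 and 0.00969 in MOSE-NEO, 2.08-fold higher in MOSE-PAX8, with a log2 difference of 1.06 that was 1.43 without MOSE-NEO 1 and 0.74 without MOSE-NEO 2. Each of the 4 ratios separated the lines and gave p = 0.1 in a two-sided exact permutation test (adjusted over 4 ratios, 0.1), which is the smallest p that 3 libraries against 3 allow, so none could pass.

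**Figure D3:**
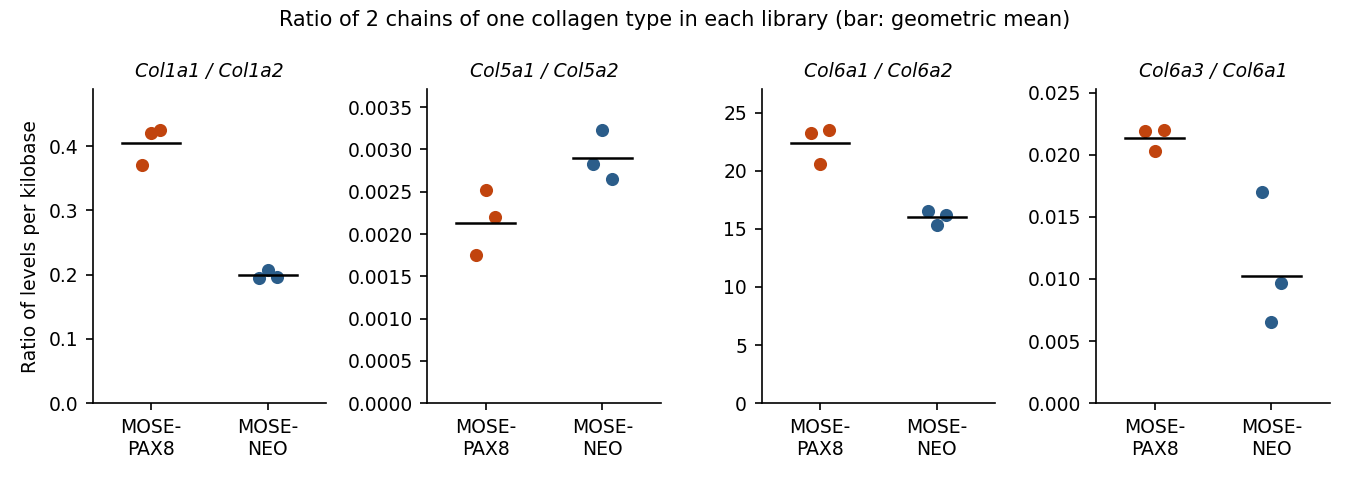
Ratio of levels per kilobase of 2 chains of one collagen type (vertical axis, linear from 0) in each MOSE-PAX8 and MOSE-NEO library, with bars at the geometric mean. In all 4 panels the libraries of the lines do not overlap, and Col1a1 to Col1a2 runs from 0.371 to 0.425 in MOSE-PAX8 and from 0.194 to 0.207 in MOSE-NEO.

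The order of levels per kilobase was alike at the top and differed below. In both lines it began with Col3a1 (1689 ± 52.2 in MOSE-PAX8 and 3166 ± 250 CPM per kilobase in MOSE-NEO), followed by Col1a2 (833 ± 101 and 2153 ± 220) and Col5a2 (405 ± 33.4 and 801 ± 66.4; SD, n = 3 in each line). Col1a1 came next, at 338 ± 48.5 in MOSE-PAX8, where its libraries overlapped those of Col5a2, and at 429 ± 59.3 in MOSE-NEO, where they did not. Col6a1 and then Col16a1 followed in both lines, each apart from its neighbours. From Col6a3 down in MOSE-PAX8 and from Col5a1 down in MOSE-NEO, each gene overlapped the next in the order.

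Several collagens, most of them scarce, were high in the same libraries. Col7a1, Col9a3, Col11a2, Col12a1, Col14a1, Col16a1, Col20a1 and Col27a1, 8 of the 17 tested, had their highest CPM within each line in the lincRNA-rich libraries MOSE-PAX8 2 and MOSE-NEO 1, as did 23.9% of all tested genes. Col9a3 stood 1.18 above the mean of its line on the log2 scale in MOSE-PAX8 2 and 0.89 above in MOSE-NEO 1, and Col11a2 stood 1.01 and 0.7 above. Col3a1 deviated by at most 0.05 in MOSE-PAX8 and 0.13 in MOSE-NEO. Col1a1, Col1a2, Col5a1, Col6a1 and Col6a2 were highest within each line in MOSE-PAX8 2 and MOSE-NEO 2. Of these, Col6a2 stood furthest above its line, by 0.33 in MOSE-PAX8 2 and 0.34 in MOSE-NEO 2. Leaving out MOSE-NEO 2 gave log2 fold changes of -0.74 for Col6a1 and -1.18 for Col6a2, in place of -0.88 and -1.36. The estimates of Col7a1, Col9a3 and Col11a2, none of them called, depended on single libraries. Without MOSE-NEO 1 the log2 fold changes were 0.01 for Col7a1, 0.27 for Col9a3 and 0.29 for Col11a2, and without MOSE-PAX8 2 they were -1.01, -1.2 and -0.84 for the same genes. What lincRNA content has to do with these levels was not tested. With both libraries left out, 8 collagen genes were lower and 2 higher, against 14.1% and 14.9% of all genes then tested, and the eighth lower gene was Col1a1.

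**Figure D4:**
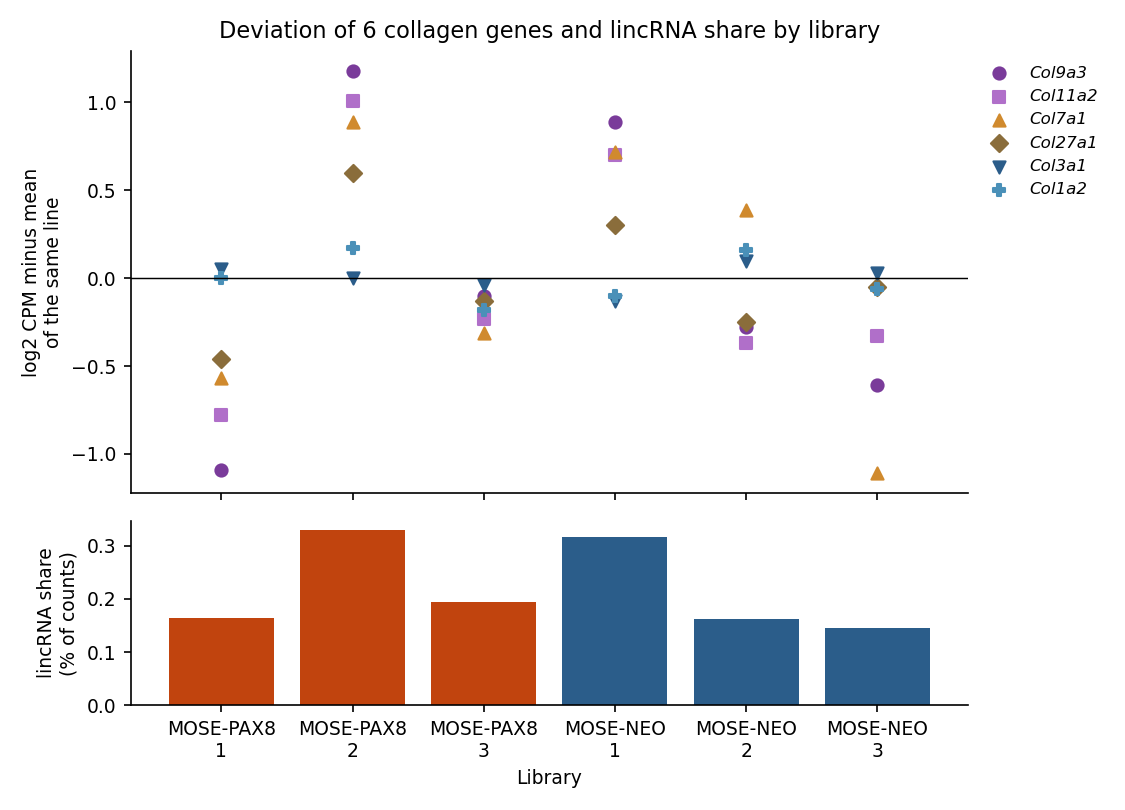
Upper panel, log2 CPM of 6 collagen genes minus the mean of the same line (vertical axis) in each library; lower panel, share of counts in lincRNA genes (%). Col9a3, Col11a2, Col7a1 and Col27a1 are highest within each line in MOSE-PAX8 2 and MOSE-NEO 1, the libraries with 0.33% and 0.317% lincRNA, while Col3a1 and Col1a2 stay within 0.18 of 0.

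The genes that make, trim, bind and degrade collagen were counted from 5 lists with 69 genes, of which 45 were tested. In MOSE-PAX8, 10 rose and 15 fell, where 17.9% of all tested genes were called higher and 16.1% lower, and the median log2 fold change was -0.22. Without 1 library in turn, 9 to 11 rose and 11 to 17 fell, and the shares called over all genes were not taken for these fits. A partner gene can also pass the filter on low counts through the line in which it is high, as P3h2 below could. The 45 tested genes therefore do not stand for the 69. Of 19 tested genes of hydroxylation, folding and secretion, 9 fell and 2 rose, beside the same 16.1% and 17.9% of all tested genes, with a list median of -0.27. P4ha2, a catalytic subunit of the prolyl 4-hydroxylase that stabilises the triple helix, had 18.7, 16.9 and 18.9 CPM in MOSE-PAX8 and 33.9, 30.7 and 40.9 CPM in MOSE-NEO (log2 fold change -0.95 ± 0.12 SE, edgeR adjusted p = 0.000435). P3h4, a partner in lysine hydroxylation of collagen, and Fkbp14, a prolyl isomerase, fell by 0.57 and 0.58 on the log2 scale. P3h2, a prolyl 3-hydroxylase, went the other way, with 9.24, 9.74 and 13.6 CPM in MOSE-PAX8 and 0.604, 0.174 and 0.365 CPM in MOSE-NEO (log2 fold change 4.76 ± 0.33 SE, edgeR adjusted p = 2.26e-05). Plod2, the lysyl hydroxylase of the chain ends, rose by 0.38 on the log2 scale. Serpinh1, the collagen chaperone HSP47, had a log2 fold change of 0.05 ± 0.1 SE (edgeR adjusted p = 0.726).

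In the list of procollagen processing and crosslinking, 5 of 10 tested genes fell and 1 rose, against 16.1% and 17.9% of all tested genes. The N-propeptidases Adamts14 and Adamts3 fell by 1.48 and 1.6 on the log2 scale, with Adamts14 at 2.65, 2.95 and 3.48 CPM in MOSE-PAX8 and 9.44, 8.74 and 7.17 CPM in MOSE-NEO (edgeR adjusted p = 0.000335). Bmp1, the C-propeptidase, fell by 0.66 on the log2 scale. It lies on chromosome 14, and once the local chromosome median was subtracted its value was -0.18 (edgeR adjusted p = 0.256). Lox, a crosslinking lysyl oxidase, had 3466, 3266 and 3428 CPM in MOSE-PAX8 and 2318, 2304 and 2765 CPM in MOSE-NEO, and rose by 0.46 on the log2 scale (edgeR adjusted p = 0.00921). Lox was thus higher in MOSE-PAX8 while 4 fibrillar genes were lower.

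In the receptor and protease lists more genes were called higher than lower. Of 12 listed receptor genes 7 were tested, and 4 rose and 1 fell, against 17.9% and 16.1% of all tested genes. Itga1, Ddr2 and Cd44, among those that rose, had few counts in MOSE-NEO and could pass the filter on low counts through MOSE-PAX8. The tested receptor genes therefore do not stand for the list. Itga1, the integrin alpha-1 chain, had 13.8, 20 and 23.4 CPM in MOSE-PAX8 and 0.222, 0.304 and 0.465 CPM in MOSE-NEO. Ddr2, a receptor kinase for fibrillar collagen, had 36, 30 and 37 counts in MOSE-PAX8 and 3, 1 and 2 in MOSE-NEO, and its epithelial relative Ddr1 was the receptor that fell (log2 fold change -0.63 ± 0.1 SE, edgeR adjusted p = 0.00139). Cd44, mainly a hyaluronan receptor, was at 16.2, 16.1 and 30.9 CPM in MOSE-PAX8 and 0.0953, 0.13 and 0.232 CPM in MOSE-NEO. Of 10 listed collagen-degrading proteases 4 were tested and 2 rose, where 17.9% of all tested genes were called higher. These were the collagenase Mmp13, by 1.26, and the membrane protease Mmp15, by 1.09 on the log2 scale. Mmp2 and Mmp14 did not pass. The most abundant tested protease, Mmp2, had a log2 fold change of 0.12 ± 0.08 SE (edgeR adjusted p = 0.275). Of 11 listed fibril-binding proteoglycans 5 were tested and 1 rose, near the 17.9% of all tested genes called higher. It was Ogn (osteoglycin), with 17.3, 14.8 and 15.4 CPM in MOSE-PAX8 and 5.08, 6.22 and 5.28 CPM in MOSE-NEO. Dcn (decorin) and Bgn (biglycan), both abundant, had log2 fold changes of -0.15 ± 0.14 and -0.15 ± 0.21 SE and did not pass (edgeR adjusted p = 0.466 and 0.646).

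**Figure D5:**
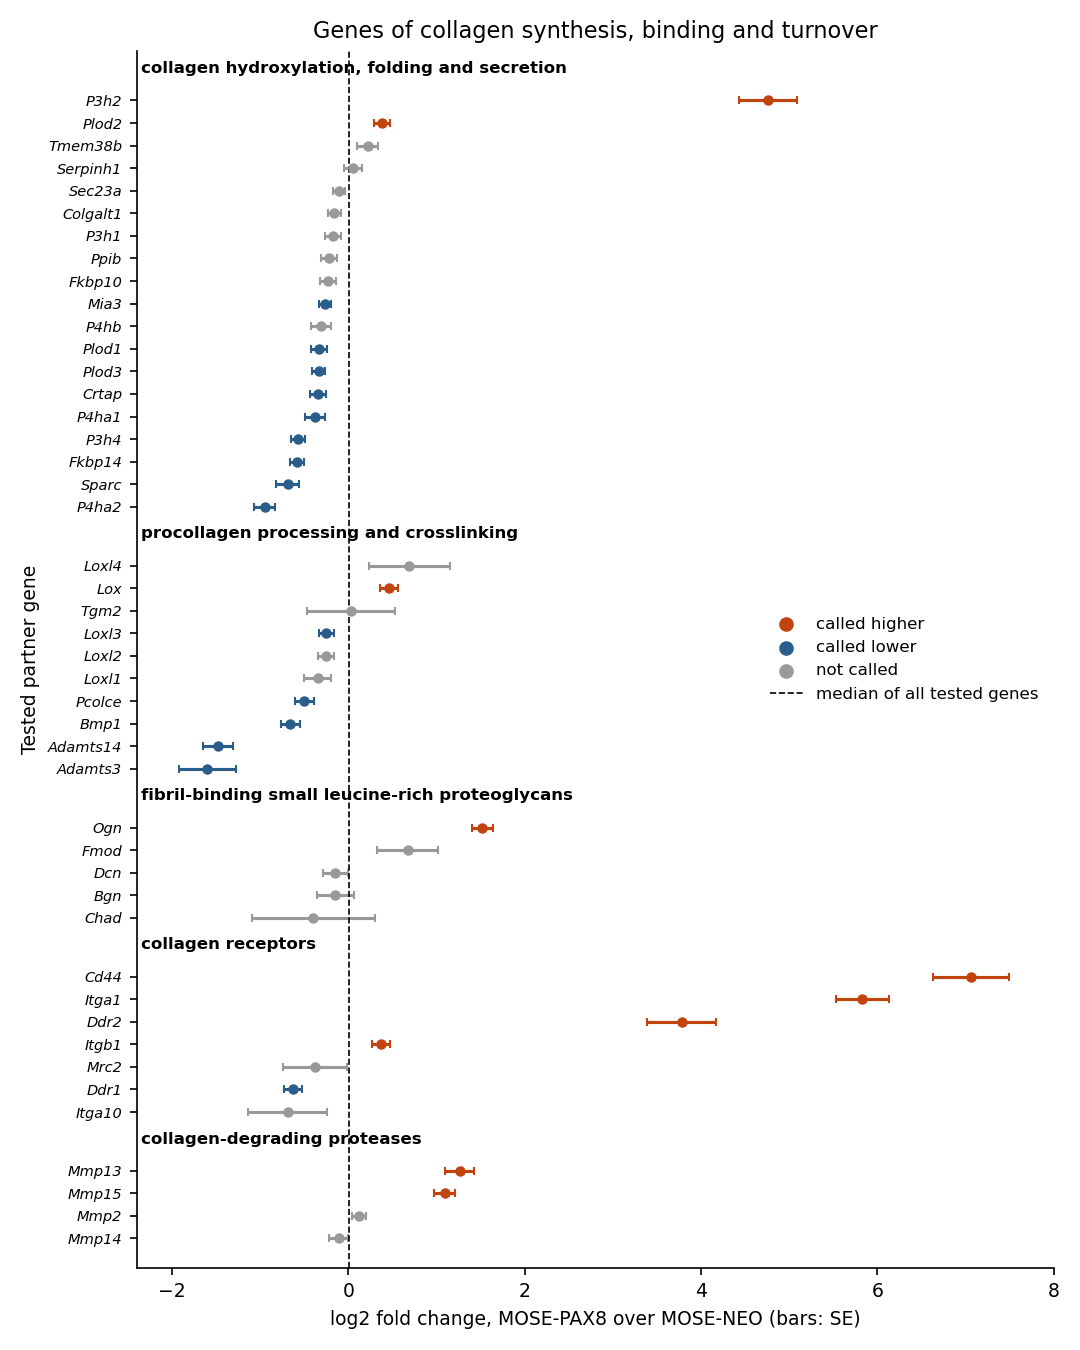
Log2 fold change of the 45 tested partner genes in MOSE-PAX8 over MOSE-NEO (horizontal axis, bars are SE of the edgeR estimate), grouped by list. In the top list 9 genes lie lower and 2 higher by the test, and in the receptor list Cd44, Itga1 and Ddr2 lie beyond 3 on the log2 scale.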

How the data were processed

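RNA from 3 MOSE-PAX8 and 3 MOSE-NEO libraries was analysed from the raw read counts per gene that the authors deposited, 1 table per library, with groups taken from the sample titles. The submitters' processing notes name cutadapt 1.13, STAR, HTSeq 0.6.1p1, DESeq2 and the build mm10. Strandedness, gene models and multi-mapped reads: not given in the sources used here. Symbols, coordinates (mm10, counted from 1) and lengths came from GENCODE M21, which matched 24991 of 25006 identifiers, and promoters from RefSeq (GRCm38.p6). The 33 collagens, the partner lists and the alternatives were chosen with earlier results of these data known. One marker gene is not reported here.

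The fit across all genes used edgeR 4.0.16 under R 4.3.3 (quasi-likelihood test, TMM factors, filterByExpr, Benjamini-Hochberg adjustment over 12313 genes), with calls at an adjusted p below 0.05. CPM values use the TMM factors, and levels per kilobase divide them by the longest coding transcript. The limits for a count of 0 use library totals instead. A positive log2 fold change means a higher level in MOSE-PAX8, and SE is the estimate divided by the root of its F statistic. Collagens whose mean reached 1 CPM in either line are given by library, and from each partner list up to 3 called genes per direction, with others named as examples after their values were seen. Chain ratios were tested with SciPy 1.17.1 after adding 0.5 counts. No pair of libraries within a line was a duplicate (chi-square per gene at least 13.3). The fit was tested on simulated data with 200 genes changed, a smaller part than was called in the real data. It recovered 52.6% of genes changed 1.5-fold, 82.5% at 2-fold and 95.2% at 4-fold, with 15 false calls. A gene that did not pass is therefore not shown to be unchanged. Alternatives were DESeq2 1.42.0, limma-voom (limma 3.58.1), RLE and upper-quartile factors, other low-count filters, the replicate number as a block, libraries left out, the median of the 50 nearest genes removed, a test against a fold of 1.5 and, added after seeing the data, removal of each library's GC trend in 20 bins.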

Additional observations from a re-analysis of the deposited data

How the results depend on the processing

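The 7 lower collagens (Col1a2, Col3a1, Col5a1, Col5a2, Col6a1, Col6a2 and Col16a1) and Col12a1 kept their direction and their call in all 16 alternatives that test for any change. The test against a fold of 1.5 called 5 of the 7 lower, without Col6a1 and Col16a1, and 1 higher, and it called 3 partner genes lower in place of 15, as the stricter test is built to do. The count of higher collagens was 2 in the main setting and 1 with DESeq2, a filter of 1 CPM in 3 libraries, which removes Col14a1, the replicate number as a block and the local chromosome median removed, and 1 to 3 with a library left out. The gene lost was Col14a1, and the cause was not tested. Without 1 library in turn 7 or 8 collagens were called lower. For the fits without 1 library and with the replicate block, the shares called over all genes were not taken. The counts from these fits therefore stand without that comparison. Col1a1 passed with DESeq2 (adjusted p = 0.0204), the replicate block (0.024), the lincRNA-rich libraries left out (0.0202), the GC trend removed (0.0487) and without MOSE-PAX8 2 (0.0252). Estimates that did not pass changed sign when a library was left out: Col6a3 to -0.08 and -0.05 (range -0.08 to 0.51), Col7a1 to 0.01 (-1.01 to 0.01), Col9a3 to 0.05 and 0.27 (-1.2 to 0.27), Col11a2 to 0.17, 0.02 and 0.29 (-0.84 to 0.29), and Col28a1 to -0.12 and -0.09 (-0.12 to 0.43). Star, a granulosa and theca marker, lost its call in 5 of the fits without 1 library (adjusted p 0.0633 to 0.0896). Chain ratios kept their direction, with log2 differences without 1 library in turn of 0.99 to 1.09 for Col1a1 to Col1a2, -0.56 to -0.3 for Col5a1 to Col5a2, 0.45 to 0.54 for Col6a1 to Col6a2 and 0.74 to 1.43 for Col6a3 to Col6a1, and of 0.98, -0.58, 0.57 and 1.46 for these ratios without both lincRNA-rich libraries. The log2 ratios of the fibrillar and network class levels, MOSE-PAX8 over MOSE-NEO, were between -1.06 and -0.74. This range covers library totals, RLE factors and 1 library left out in turn. Same-numbered libraries did not all pair, with correlations of -0.465, 0.054 and 0.402 between their deviations. Between libraries of different number the correlations ran from -0.645 to 0.627, the highest for MOSE-PAX8 2 with MOSE-NEO 1. With the replicate block 8 collagens were lower and 1 higher. The 16 collagens that were not tested had too few counts at this depth, and whether any of them is silent was not tested.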
